A study of Mus musculus with 6 samples.

Results

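Claudins are the strand-forming membrane proteins of tight junctions, and the genes described here are the claudins together with genes for the other junctions of an epithelium. They were chosen by symbol: every gene named Cldn with a number and a fixed set that includes Tjp1, Tjp3, Ocln, Marveld2, Marveld3, Epcam, Cdh1, Cdh2, Cgn, Crb3, F11r, Pard3, Pard6b, Patj, Dsp, Dsg2, Jup, Pkp2 and Ctnnd1. This gave 43 of the 54735 gene symbols counted, 23 of them claudins. RNA from whole e16.5 mouse pancreas was sequenced in 3 RARdn libraries (Neurog3:cre;RARdnfl/fl) and 3 control libraries (Neurog3:cre alone), all on a mixed C57Bl6/129SV background, so that the Cre transgene is carried by both groups. RARdn is a dominant-negative retinoic acid receptor, and the Neurog3 driver acts in endocrine progenitors, whereas the RNA came from the whole organ, in which most epithelial cells lie outside that lineage. The allele itself could not be checked in these counts. The labels name no litter, sex or batch, and the p-values below measure the spread between these libraries, which may be technical.

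Epithelial cells are joined by a belt of junctions below their apical surface. In the tight junction, claudins pair between neighbouring cells and set which ions and solutes pass between them, MARVEL proteins such as occludin sit in the same strands, and cytoplasmic scaffolds of the zonula occludens family tie the strands to actin. Beneath it the adherens junction holds cells through E-cadherin and its catenins, and desmosomes hold them through desmosomal cadherins linked to keratin. The Crumbs and Par complexes place these junctions at the border of the apical membrane, which in the developing pancreas lines the lumen of the branching tubes from which acinar, duct and endocrine cells arise. Because the RNA is from bulk tissue, fewer cells of a type and less RNA per cell cannot be told apart.

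Reads assigned to genes numbered 35256531 to 52015498 per library. Levels are in CPM, counts scaled to a common library total, after TMM scaling, which sets the bulk of genes equal between libraries. Of the pancreatic markers, all 17 acinar, all 12 duct and trunk and all 15 endocrine genes were expressed highly enough to be tested, whereas 9 of 11 stomach and intestine genes were not. The RARdn libraries were unlike each other in cell type markers. The 17 acinar genes summed to 36422, 140867 and 203131 CPM in RARdn 1, 2 and 3, against 111719 to 123744 CPM in controls. Alb, a liver gene, was at 597, 137 and 3.19 CPM in RARdn 1, 2 and 3, against 1.18 to 2.92 CPM in controls. Xist was high in control 1 and control 3 and near 0 in the other 4 libraries. Genes for ribosomal RNA took 0.0719% to 0.0820% of counts in RARdn and 0.903% to 0.949% in control libraries, a technical or biological difference that cannot be told apart from the groups.

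No junction gene differed between RARdn and control pancreas beyond the threshold. Of the 36 members tested, 24 had log2 fold changes (RARdn over control) below 0 and 12 above 0, and 9 of those above 0 were claudins. None of the 36 members that could be tested passed edgeR's quasi-likelihood test at an adjusted p of 0.05, against 4.02% of all 19070 genes tested (767 genes, of which 262 or 1.37% were higher and 505 or 2.65% lower). At an unadjusted p under 0.05 there were 11 members, 5 higher and 6 lower in RARdn, against 22.2% of all genes. limma-voom also called 0 members and 4.17% of all genes, and DESeq2 called 6, with Cldn1, Cldn2, Cldn5 and Cdh2 higher and Cgn and Dsp lower, where it called 10.2% of all genes. The smallest adjusted p of a member was 0.0647, for Cldn2. A p above the threshold does not show that the levels were the same, and the intervals give what the data allow. The 95% interval of the fold change lay within 2-fold in either direction for 29 of the 36 members (80.6%), against 65.8% of all genes.

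Claudins and the other junction genes had a different balance of directions, a difference that was not tested. Among the 20 members other than claudins, 17 had a log2 fold change (RARdn over control) below 0 and 3 above, with a median of -0.21. Among the 16 claudins tested, 7 were below 0 and 9 above, with a median of 0.09. Over all genes tested 50% were below 0, with a median of 0.00. The 3 RARdn and 3 control libraries did not overlap for 7 of the 36 members (19.4%), against 27.6% of all genes (13.9% higher and 13.7% lower). Cldn2, Cldn5, Cldn11 and Cdh2 were the 4 with every RARdn library above every control, and Cldn4, Cldn23 and Cgn the 3 with every RARdn library below.

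**Figure D1:**
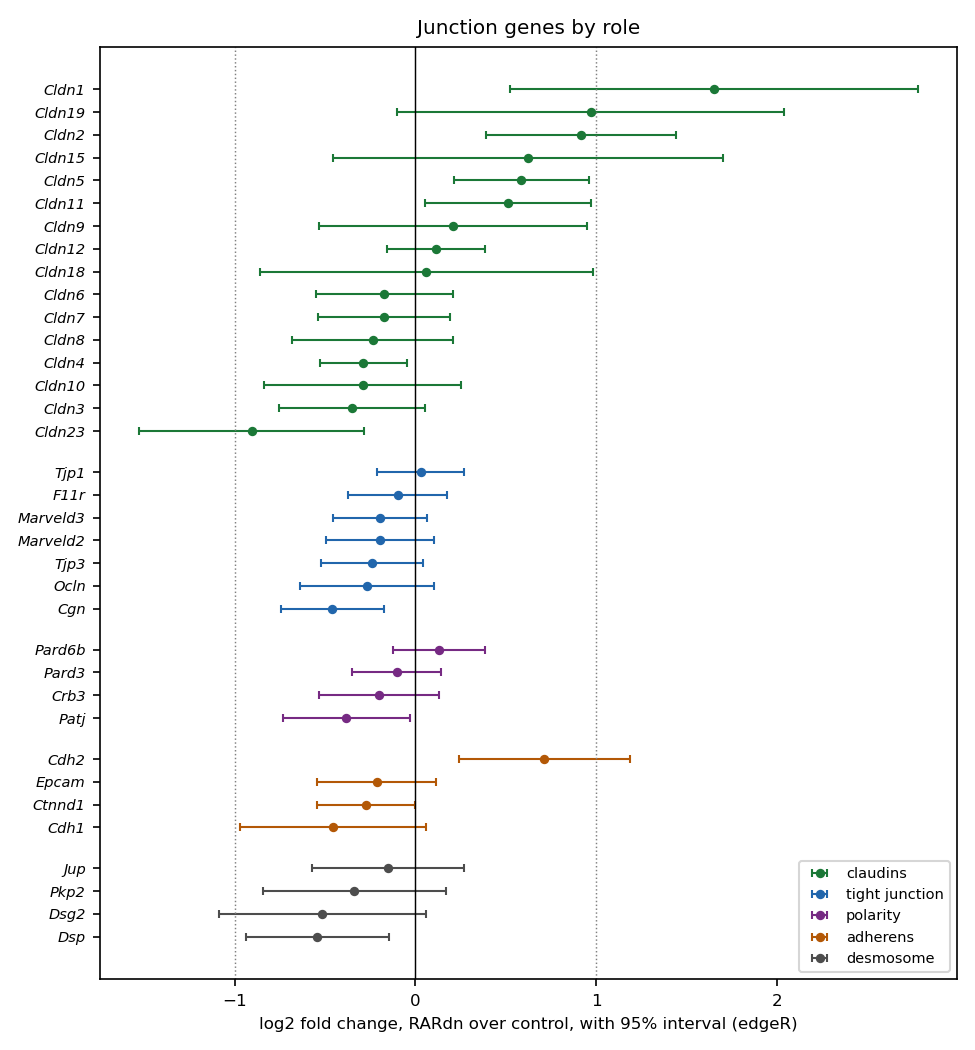
Log2 fold change of 35 of the 36 junction genes tested, RARdn over control, on the x axis with its 95% interval (edgeR, 3 libraries in each group), grouped by role down the y axis. Dotted lines mark a 2-fold change in either direction. Tight junction scaffold, polarity and desmosome genes lie mostly left of 0, between -0.54 and 0.13, while the claudins spread from -0.91 to 1.65.

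For the junction genes RARdn 3 was close to controls, unlike RARdn 1 and 2. RARdn 1 was below the lowest control for 25 of 36 members and RARdn 2 for 23, whereas RARdn 3 was for 4. Over all genes tested these shares were 36.4%, 35.6% and 35.4%. The median difference of the non-claudin members from the control mean, on a log2(CPM + 0.5) scale, was -0.36, -0.35 and 0.01 in RARdn 1, 2 and 3, against -0.14, 0.06 and 0.07 in control 1, 2 and 3. The 14 epithelial genes that encode no junction protein, such as Krt8, Krt18 and Spint2, had medians of -0.53, -0.48 and 0.03 in RARdn 1, 2 and 3. Their summed level was 1571, 1822 and 2836 CPM in RARdn 1, 2 and 3, against 2538 to 2763 CPM in controls, so the non-claudin junction genes and most other epithelial genes were low in the same libraries. The 1 called gene of that list, Cdhr2, a brush border protocadherin, went the other way, at 11.5, 13.1 and 12.8 CPM in RARdn 1, 2 and 3, against 6.08, 5.39 and 4.82 CPM in control 1, 2 and 3 (log2 1.20, adjusted p = 0.00904). The 16 claudins had medians of -0.32, 0.01 and 0.14 in RARdn 1, 2 and 3, with only RARdn 1 low. The part of the epithelial difference in the results below was not tested. When RARdn 3 was left out, 13 of 37 members were called by edgeR (35.1%), against 14.8% of all genes. Of these, Cldn1, Cldn2, Cldn13 and Cdh2 were higher in RARdn and Cldn3, Cldn6, Tjp3, Cgn, Patj, Cdh1, Ctnnd1, Dsp and Dsg2 lower. When control 1 was left out, Cldn5 alone was called (adjusted p = 0.0467), against 1.75% of all genes. Leaving out any other single library gave 0 calls among members.

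**Figure D2:**
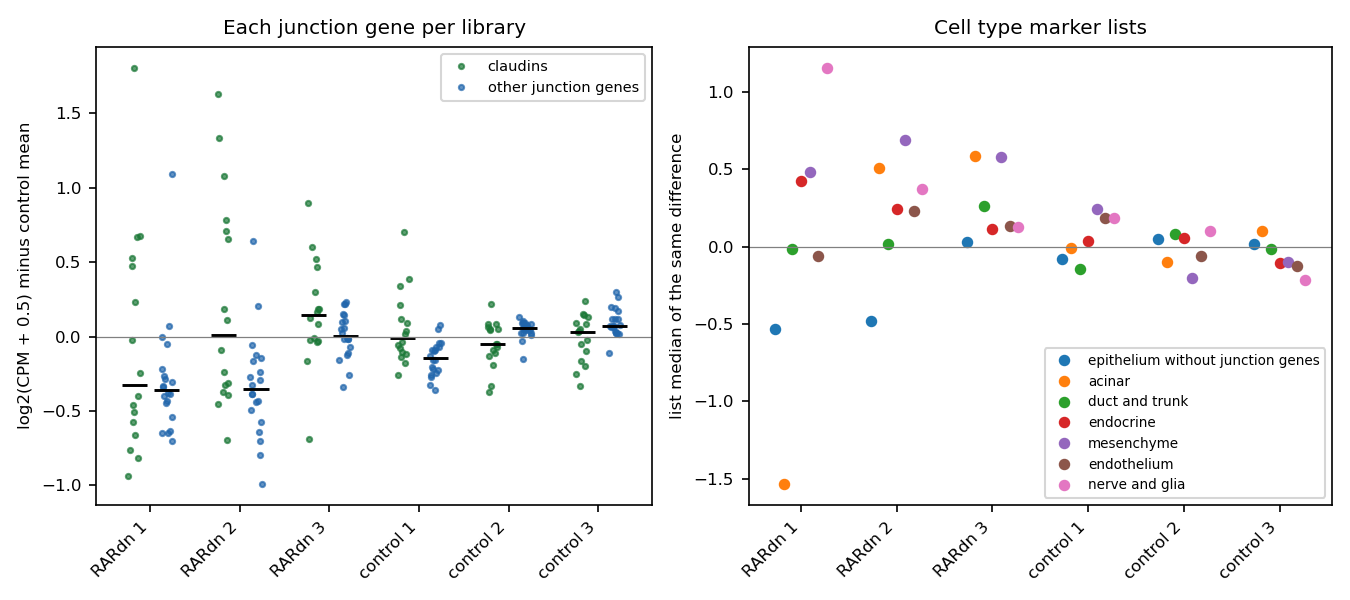
Left, difference of each tested junction gene from its control mean on a log2(CPM + 0.5) scale, 1 point per gene in each library, claudins and other junction genes apart, with a bar at the median. Right, the median of the same difference over 7 lists of cell type markers. The non-claudin genes and the epithelium list are both low in RARdn 1 and 2 (-0.36 and -0.35 for the non-claudin genes) and near 0 in RARdn 3.

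Promoters could be read for 33 of the 43 members in RefSeq windows (GRCm38.p6) that run from 250 bases before to 50 bases after each annotated start. They were searched for CAGGTG on either strand (CACCTG on the reverse), the E-box that Snail and Zeb repressors are known to bind. Cdh1 was among the 10 members with no window. It was in 19 of the 49 member windows (38.8%), against 6640 of 32851 windows in all (20.2%). Of the 14 tested members with it, 13 had a log2 fold change below 0 (median -0.21), while of the 13 tested members without it 4 did (median 0.11). Claudins were 4 of the 14 with the motif and 9 of the 13 without, so this split overlaps that of claudins and other members, and the difference was not tested. Claudins below 0 were 4 of 4 with the motif and 1 of 9 without, and the other members below 0 were 9 of 10 with it and 3 of 4 without. Among all tested genes with a window the shares below 0 were 49.3% with the motif and 47.3% without. AACCGGTT, the Grainyhead-like site, was in 0 of the 49 member windows and 0.146% of all windows. The direct repeat of AGGTCA with a spacing of 5 bases, known to be bound by retinoic acid receptors, was in 0 member windows and 3 of all windows. A match describes letters in a window and says nothing of binding there. The stretches shown are upstream of the start of Epcam, an abundant member with 2 copies of the motif in the stretch, of Tjp3 and Cldn4, both with means below control, and of Pard6b, the one tested carrier with a log2 fold change above 0. They are written 5′ to 3′ on the strand of the gene with the motif in capitals. The Tjp3 stretch lies before an inner annotated start, within the gene. The window at the outer start of Tjp3 also holds the motif and is not shown.
Epcam, chr17:87635779-87635978, plus strand: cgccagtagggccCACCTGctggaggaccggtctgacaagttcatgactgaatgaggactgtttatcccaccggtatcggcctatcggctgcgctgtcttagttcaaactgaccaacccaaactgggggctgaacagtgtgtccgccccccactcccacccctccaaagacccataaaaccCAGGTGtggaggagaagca
Tjp3, chr10:81291268-81291387, minus strand: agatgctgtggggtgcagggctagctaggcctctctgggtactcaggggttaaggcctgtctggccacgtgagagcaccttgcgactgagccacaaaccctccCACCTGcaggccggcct
Cldn4, chr5:134946935-134946994, minus strand: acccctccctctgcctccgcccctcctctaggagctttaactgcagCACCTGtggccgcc
Pard6b, chr2:168080851-168080950, plus strand: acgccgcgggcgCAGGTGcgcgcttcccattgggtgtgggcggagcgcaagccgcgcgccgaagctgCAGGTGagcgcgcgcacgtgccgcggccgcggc

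Of the claudins, 5 genes made up most of the transcripts. Per kilobase of exon, the order was Cldn3, Cldn10, Cldn6, Cldn7, Cldn4 in each of the 6 libraries. Cldn3 stood at 93.3 ± 24.2 CPM per kb in RARdn and 119 ± 5.58 in control (SD, n = 3 each), and Cldn10 at 77.0 ± 26.8 in RARdn and 94.3 ± 9.01 in control. The spreads of this pair overlapped in RARdn. Cldn6 was at 51.4 ± 12.7 CPM per kb in RARdn and 57.8 ± 4.07 in control, and Cldn7 at 29.1 ± 6.53 in RARdn and 32.8 ± 3.58 in control. Cldn4 followed with 19.1 ± 1.94 CPM per kb in RARdn and 23.4 ± 1.21 in control, and Cldn5, a claudin of vessel endothelium, with 16.4 ± 1.24 in RARdn and 10.9 ± 2.46 in control. These first 5 held 84.1%, 85.2% and 89.2% of all claudin CPM per kb in RARdn 1, 2 and 3, against 89.6%, 91.4% and 91.6% in control 1, 2 and 3. Every RARdn library was below every control in that share, RARdn 3 narrowly. The share of Cldn5 was 5.44% ± 1.24 in RARdn and 3.07% ± 0.856 in control, and in RARdn 2 it exceeded that of Cldn4 (5.82% and 5.56%).

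**Figure D3:**
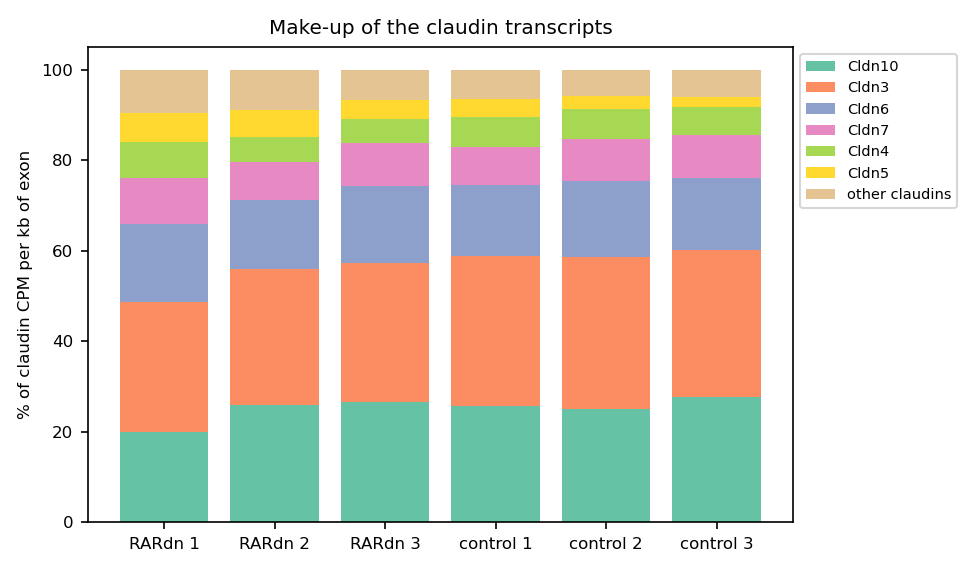
Share of each claudin in the summed claudin CPM per kb of exon, 1 stacked bar per library, RARdn 1 to 3 at the left and control 1 to 3 at the right. Cldn3 and Cldn10 are the largest layers in each bar, and the layer of Cldn5 is 4.06% to 6.44% in RARdn and 2.39% to 4.03% in control libraries.

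Cldn3 and Cldn4, which lie beside each other on chromosome 5 with 39.3 kb between them, are claudins that tighten the paracellular seal. Cldn3 (chr5:134986214-134987472 in GRCm38) was at 88.1, 115 and 149 CPM in RARdn 1, 2 and 3, against 142, 155 and 153 CPM in control 1, 2 and 3. RARdn 1 and 2 were low, RARdn 3 lay within the control range, and the log2 fold change was -0.35 ± 0.18 (SE; adjusted p = 0.283, interval -0.76 to 0.05). Cldn4 (chr5:134945119-134946934) was at 35.6, 30.9 and 37.8 CPM in RARdn 1, 2 and 3, against 40.7, 44.9 and 41.7 CPM in control 1, 2 and 3. Its groups did not overlap, by a narrow gap, and the log2 fold change was -0.29 ± 0.11 (SE; adjusted p = 0.159). Of these first 5 claudins, Cldn4 varied least between RARdn libraries (34.8 ± 3.53 CPM, SD, n = 3).

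Cldn10 (chr14:118787908-118875489), which forms paracellular ion pores, was at 127, 206 and 265 CPM in RARdn 1, 2 and 3, against 227, 236 and 271 CPM in control 1, 2 and 3. RARdn 3 was within the control range and RARdn 1 furthest below it, giving a log2 fold change of -0.29 ± 0.24 (SE; adjusted p = 0.514). In RARdn the order of the libraries for Cldn10 was that of the summed acinar genes, lowest in RARdn 1 and highest in RARdn 3. This order was not particular to Cldn10, since Cldn3, Cldn6 and Cldn7 had it too, while Cldn4 did not. Of the 36 tested members, 24 were highest in RARdn 3 among the RARdn libraries, against 31.4% of all genes. The part of the acinar difference in Cldn10 was not tested. Cldn6, a claudin of fetal epithelia, ranged over 72.1 to 113 CPM in RARdn and 91.4 to 104 CPM in control, with a log2 fold change of -0.17 (adjusted p = 0.585). Cldn9, whose gene lies 137 bases from Cldn6 on chromosome 17, was at 2.96, 8.13 and 6.25 CPM in RARdn 1, 2 and 3, against 4.49, 5.17 and 5.30 CPM in control 1, 2 and 3, a difference that did not pass (log2 0.21, adjusted p = 0.753). Cldn7, a claudin also found along the lateral membrane, ranged over 48.0 to 71.3 CPM in RARdn and 56.1 to 69.6 CPM in control.

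The claudins with higher means in RARdn were scarcer ones. Cldn2 (chrX:139800828-139811386), a cation and water pore of leaky epithelia, was at 4.15, 5.66 and 3.92 CPM in RARdn 1, 2 and 3, against 2.87, 2.32 and 2.11 CPM in control 1, 2 and 3. The groups did not overlap, and the log2 fold change of 0.92 ± 0.23 (SE; adjusted p = 0.0647, interval 0.39 to 1.44) missed the threshold. Cldn5 (chr16:18776847-18778262) was at 22.2, 25.2 and 22.2 CPM in RARdn 1, 2 and 3, against 19.4, 14.3 and 12.7 CPM in control 1, 2 and 3. Here too the groups did not overlap, with a log2 fold change of 0.59 ± 0.16 (SE; adjusted p = 0.0850). Cldn11, known from myelin and from the Sertoli cells of the testis, was at 5.71, 3.95 and 4.90 CPM in RARdn 1, 2 and 3, against 3.45, 3.63 and 3.15 CPM in control 1, 2 and 3. RARdn 2 was only just above the highest control, and the log2 fold change was 0.51 ± 0.20 (SE; adjusted p = 0.184).

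Values of other vessel genes are given beside Cldn5, and their part in its difference was not tested. The 9 endothelial markers summed to 664, 717 and 721 CPM in RARdn 1, 2 and 3, against 765, 654 and 620 CPM in control 1, 2 and 3, which overlapped. Of the 9, 8 had log2 fold changes above 0 (median 0.07) and none was called. Tie1, an endothelial receptor, had every RARdn library above every control (log2 0.29, adjusted p = 0.161), and Pecam1, an endothelial adhesion molecule, had a log2 fold change of 0.01. Cldn5 counts per Pecam1 count, a ratio within a library that no scaling touches, were 0.178, 0.185 and 0.164 in RARdn 1, 2 and 3, against 0.131, 0.114 and 0.105 in control 1, 2 and 3. The ratio was 1.5 times as high in RARdn, in 3 of 3 libraries (2-sided exact permutation p = 0.1, the smallest that 3 against 3 allows, and 0.2 after Benjamini-Hochberg adjustment over the 3 ratios computed).

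Cldn1, a claudin of the epidermal barrier that is also made in liver and bile duct, had the largest log2 fold change of the tested members, 1.65 ± 0.50 (SE; adjusted p = 0.1). It was at 5.50, 4.81 and 1.32 CPM in RARdn 1, 2 and 3, against 1.75, 1.0 and 1.0 CPM in control 1, 2 and 3. RARdn 1 and 2 were high and RARdn 3 was inside the control range, the libraries being in the same order as for Alb. The liver list, with 8 of 9 genes above 0 and 2 called, had medians of 4.82, 2.48 and 0.13 in RARdn 1, 2 and 3 on the log2(CPM + 0.5) scale, and its part in the Cldn1 values was not tested. Cldn13, a rodent claudin, did not pass the filter on low counts with all 6 libraries, and had 175, 18 and 6 counts in RARdn 1, 2 and 3, against 3, 2 and 0 counts in control 1, 2 and 3. RARdn 1 alone held most of these counts, and its part in the Cldn13 values, like that of the liver list, was not tested. Without the filter Cldn13 was called higher (log2 4.85, adjusted p = 0.00225).

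None of the remaining claudins passed the test, and among them the groups did not overlap for Cldn23 alone. Cldn18, the claudin of stomach and lung, ranged widely in RARdn, 7.49, 10.3 and 25.7 CPM in RARdn 1, 2 and 3, against 14.5, 10.7 and 16.1 CPM in control 1, 2 and 3 (log2 0.06, adjusted p = 0.946). Cldn8, known from distal nephron, and Cldn12, which lacks the tail that binds scaffolds, had log2 fold changes of -0.24 and 0.11. Cldn15, a sodium pore of intestine, and Cldn19, known from kidney and Schwann cells, had log2 fold changes of 0.62 and 0.97 with intervals reaching below 0. Cldn23 averaged 0.810 ± 0.0981 CPM in RARdn and 1.53 ± 0.148 CPM in control (SD, n = 3 each), with a log2 fold change of -0.91 (adjusted p = 0.102). The other untested claudins were at or near 0. Cldn14 had 1 count in RARdn 1 and 0 elsewhere, Cldn17 had 1 count in control 2 and 0 elsewhere, and Cldn16, Cldn22 and Cldn24 had 0 counts in all 6 libraries. A count of 0 allows up to 3 counts, or 0.0513 to 0.0987 CPM by library, for counting error only. For Cldn22 this limit does not hold if reads were counted without strand, since all of its exon bases lie within exons of Wwc2 on the other strand. Cldn20 had 2 to 10 counts per library.

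**Figure D4:**
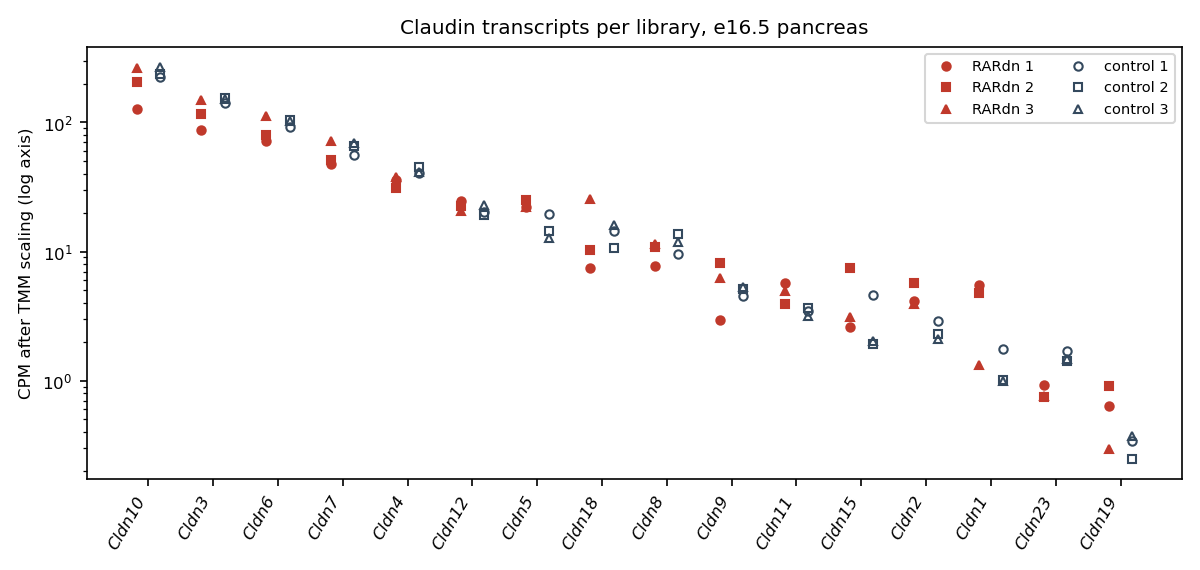
Level of each tested claudin in CPM after TMM scaling (log axis), 1 point per library, filled for RARdn and open for control, ordered by mean level. The abundant claudins at the left have RARdn 1 and 2 at or below the controls, with Cldn10 between 127 and 265 CPM in RARdn, and among the scarce ones at the right Cldn2 and Cldn11 have all 3 RARdn points above the controls.

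Among the tight junction scaffold and strand genes, 7 of 8 had log2 fold changes below 0, none was called, and all 8 intervals lay within 2-fold. Tjp1, which encodes the scaffold ZO-1, was at 121, 117 and 134 CPM in RARdn 1, 2 and 3, against 114, 123 and 127 CPM in control 1, 2 and 3. The groups overlapped, with RARdn 3 above every control, and the log2 fold change of 0.03 ± 0.11 (SE; adjusted p = 0.901) had an interval of -0.21 to 0.27. Its sign turned to -0.03 without RARdn 3 and to -0.01 without control 1. Tjp3, which encodes its relative ZO-3, was at 33.6, 32.5 and 42.2 CPM in RARdn 1, 2 and 3, against 38.8, 44.4 and 44.8 CPM in control 1, 2 and 3. RARdn 3 overlapped the controls, and the log2 fold change was -0.24 (adjusted p = 0.293).

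Cgn (chr3:94760069-94786492) encodes cingulin, which couples the tight junction plaque to actomyosin, and had the lowest log2 fold change of the 8. It was at 100.2, 92.0 and 108 CPM in RARdn 1, 2 and 3, against 118, 146 and 149 CPM in control 1, 2 and 3. The groups did not overlap, and RARdn 3 was below the lowest control here too, unlike for most members. The log2 fold change was -0.46 ± 0.13 (SE; adjusted p = 0.0799, interval -0.75 to -0.18). Ocln, which encodes occludin, was at 38.0, 34.0 and 48.9 CPM in RARdn 1, 2 and 3, against 40.0, 50.1 and 55.2 CPM in control 1, 2 and 3, which overlapped (log2 -0.27, adjusted p = 0.371). Marveld2, the tricellular junction protein tricellulin, and Marveld3 both had log2 fold changes of -0.20, and F11r, the adhesion molecule JAM-A, -0.10.

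None of the 4 polarity genes was called, and all 4 intervals lay within 2-fold. Pard3, the scaffold of the Par complex, was at 76.8, 60.4 and 66.9 CPM in RARdn 1, 2 and 3, against 71.0, 73.8 and 74.5 CPM in control 1, 2 and 3. RARdn 1 was above the controls and RARdn 2 and 3 below them, with a log2 fold change of -0.10 ± 0.11 (SE; adjusted p = 0.617). Pard6b, its partner in the same complex, was at 23.3, 27.8 and 28.0 CPM in RARdn 1, 2 and 3, against 22.9, 24.8 and 24.5 CPM in control 1, 2 and 3 (log2 0.13, adjusted p = 0.532). Crb3, the apical membrane protein of the Crumbs complex, ranged over 23.8 to 36.0 CPM in RARdn and 33.8 to 35.4 CPM in control (log2 -0.20, adjusted p = 0.449). Patj, the scaffold that joins the Crumbs complex to the tight junction, was at 35.8, 30.3 and 43.9 CPM in RARdn 1, 2 and 3, against 40.5, 51.2 and 51.6 CPM in control 1, 2 and 3. RARdn 3 overlapped the lowest control, and the log2 fold change was -0.38 ± 0.15 (SE; adjusted p = 0.190).

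Of the adherens junction genes, Cdh1 (chr8:106603351-106670246), encoding E-cadherin, was one of the most abundant members per length, at 94.2 ± 28.5 CPM per kb in RARdn and 129 ± 18.9 in control (SD, n = 3 each). It was at 375, 338 and 580.0 CPM in RARdn 1, 2 and 3, against 494, 617 and 660.1 CPM in control 1, 2 and 3. RARdn 1 and 2 were low and RARdn 3 lay among the controls, with a log2 fold change of -0.45 ± 0.23 (SE; adjusted p = 0.279, interval -0.97 to 0.06). Epcam, an epithelial adhesion molecule that binds claudins, was at 215, 186 and 248 CPM in RARdn 1, 2 and 3, against 225, 264 and 265 CPM in control 1, 2 and 3. Its groups overlapped, with a log2 fold change of -0.22 ± 0.15 (SE; adjusted p = 0.421). Ctnnd1, the catenin that holds cadherins at the membrane, ranged over 28.2 to 36.5 CPM in RARdn and 35.4 to 39.8 CPM in control (log2 -0.27, adjusted p = 0.222), and 61.2% of its exon bases are shared with another annotated gene on the same strand, so its counts may miss reads.

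Cdh2 (chr18:16588877-16809246), encoding N-cadherin, had the opposite sign. It is known from mesenchyme, nerve and islet cells, and was at 33.4, 24.3 and 17.9 CPM in RARdn 1, 2 and 3, against 16.3, 13.8 and 16.1 CPM in control 1, 2 and 3. The groups did not overlap, RARdn 1 was the highest and RARdn 3 only just above the controls. The log2 fold change was 0.71 ± 0.21 (SE; adjusted p = 0.0929, interval 0.24 to 1.19). Markers of these cells differed in direction. All 10 mesenchyme genes had log2 fold changes above 0, 1 of them called, and summed to 8751, 9948 and 9142 CPM in RARdn 1, 2 and 3, against 7183, 5305 and 6011 CPM in control 1, 2 and 3. Of the 9 nerve and glia genes 7 were above 0, and 1, Ret, was called lower. Their summed level ranged over 128 to 229 CPM in RARdn and 203 to 248 CPM in control, while the list's median on the log2(CPM + 0.5) scale was 1.16, 0.37 and 0.13 in RARdn 1, 2 and 3, the order of the Cdh2 values. The 15 endocrine genes summed to 3977, 4012 and 3348 CPM in RARdn 1, 2 and 3, against 4142, 3765 and 3704 CPM in control 1, 2 and 3, with 11 of 15 above 0, Sst called higher and Ins2 called lower. The part of these lists in the Cdh2 difference was not tested. Cdh2 counts per Cdh1 count were 0.0891, 0.0719 and 0.0309 in RARdn 1, 2 and 3, against 0.0329, 0.0224 and 0.0244 in control 1, 2 and 3. RARdn 3 overlapped the controls, and the ratio was 2.41 times as high in RARdn (2-sided exact permutation p = 0.2, adjusted 0.2). Epcam counts per Cdh1 count, a ratio of 2 epithelial genes, were 0.574, 0.549 and 0.428 in RARdn 1, 2 and 3, against 0.455, 0.427 and 0.401 in control 1, 2 and 3, or 1.21 times as high in RARdn (p = 0.2 in the same exact permutation test, adjusted 0.2).

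The 4 desmosome members all had log2 fold changes below 0, with a median of -0.43. Dsg2, the desmoglein of simple epithelia, was at 101, 78.8 and 155 CPM in RARdn 1, 2 and 3, against 122, 167 and 189 CPM in control 1, 2 and 3. RARdn 3 lay between the controls, and the log2 fold change was -0.52 ± 0.25 (SE; adjusted p = 0.269). Jup, encoding plakoglobin, a catenin of both desmosomes and adherens junctions, was at 117, 117 and 179 CPM in RARdn 1, 2 and 3, against 132, 162 and 165 CPM in control 1, 2 and 3. RARdn 3 was above every control while RARdn 1 and 2 were below every control, and the log2 fold change was -0.15 ± 0.18 (SE; adjusted p = 0.668). Dsp, whose product desmoplakin links desmosomes to keratin, was at 99.7, 95.9 and 131 CPM in RARdn 1, 2 and 3, against 125, 171 and 179 CPM in control 1, 2 and 3. RARdn 3 overlapped control 1 alone, and the log2 fold change was -0.54 ± 0.17 (SE; adjusted p = 0.116). Pkp2, a plakophilin of the desmosomal plaque, ranged over 15.3 to 27.0 CPM in RARdn and 20.8 to 31.1 CPM in control (log2 -0.34, adjusted p = 0.407).

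The 90 other genes of these junctions and their regulators, of which 84 were tested, held 3 called genes, all higher in RARdn, with a median log2 fold change of 0.07. Over all genes 4.02% were called in either direction and 1.37% were called higher. The share of calls among these genes was no larger than the share in either direction and larger than the share called higher, which was not tested. Dsc3, a desmocollin typical of stratified epithelia, was at 2.84, 3.43 and 2.07 CPM in RARdn 1, 2 and 3, against 0.914, 0.312 and 0.486 CPM in control 1, 2 and 3. It rose by 2.30 ± 0.41 on the log2 scale (SE; adjusted p = 0.0225), an increase in a gene of low level, while the other 6 tested desmosome partners were below 0 and uncalled. The call was lost without RARdn 2, control 2 or control 3 (adjusted p up to 0.0835). Gja4, a connexin of arterial endothelium, was at 15.6, 18.1 and 13.9 CPM in RARdn 1, 2 and 3, against 10.3, 8.75 and 7.94 CPM in control 1, 2 and 3. It rose by 0.82 ± 0.16 on the log2 scale (SE; adjusted p = 0.0279), and the call was lost without RARdn 2, control 2 or control 3 (adjusted p up to 0.126). As for Cldn5, the summed endothelial markers given above overlapped between the groups.

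Of the 7 repressors of the epithelial state, 6 had log2 fold changes above 0 and 1 was called. Snai2, a Snail-family repressor of E-cadherin, was at 23.2, 18.7 and 13.99 CPM in RARdn 1, 2 and 3, against 11.5, 9.53 and 9.70 CPM in control 1, 2 and 3. It rose by 0.87 ± 0.19 on the log2 scale (SE; adjusted p = 0.0438), and no RARdn library overlapped a control. The call was lost when any library other than RARdn 3 was left out (adjusted p up to 0.172). Snai2 is itself made by mesenchyme and neural crest cells, whose marker values are given above, and their part was not tested. Zeb2, another repressor made by the same cells, ranged over 61.4 to 100.5 CPM in RARdn and 54.5 to 68.5 CPM in control (log2 0.43, adjusted p = 0.197). Snai1 had every RARdn library above every control (log2 0.64, edgeR adjusted p = 0.0761) and was called by DESeq2 (adjusted p = 0.0129). Snai3, a scarce gene with means of 0.540 CPM in RARdn and 0.759 CPM in control, had every RARdn library below every control (log2 -0.49, edgeR adjusted p = 0.405). Among genes with at least 1 CPM in 3 libraries, only the call of Dsc3 held, of those of Dsc3, Gja4 and Snai2. With a term for Xist in the fit, control 2 was the only control set against the RARdn libraries, as the other controls were high in Xist. That fit therefore cannot decide whether these calls depend on Xist. On the side of the epithelium, 9 of 10 regulators had log2 fold changes below 0 and edgeR called 0 of them, with 0 also at an unadjusted p under 0.05 and 0 called by limma-voom and by DESeq2. Without RARdn 3, Esrp1 was called lower (log2 -0.47, adjusted p = 0.0448). The splicing regulators Esrp1 and Esrp2 were at -0.27 and -0.21 (adjusted p = 0.404 and 0.345).

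The abundant partners of the members did not pass the test with all 6 libraries. Ctnnb1 and Ctnna1, the catenins that tie E-cadherin to actin, had log2 fold changes of -0.10 and -0.12, and the polarity genes Cdc42 and Llgl2 0.01 and -0.24. Most adherens junction partners had the opposite sign to these catenins, with 14 of 17 above 0 (median 0.31) and 0 called by edgeR. The lowest of the 17, Afdn, was at -0.47 (edgeR adjusted p = 0.0559), with every RARdn library below every control. DESeq2 called Afdn lower (adjusted p = 0.00523). Of the tight junction partners, the transcription factor Ybx3 was at -0.20 and the plaque protein Sympk at 0.04. Without RARdn 3, Ybx3 was called lower (log2 -0.41, adjusted p = 0.0415). The plakophilin-family member Pkp4 was at -0.17. Gjb1, the connexin of acinar cells, ranged over 53.7 to 119 CPM in RARdn and 95.3 to 109 CPM in control (log2 -0.23, adjusted p = 0.627), lowest in RARdn 1 like the acinar genes.

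**Figure D5:**
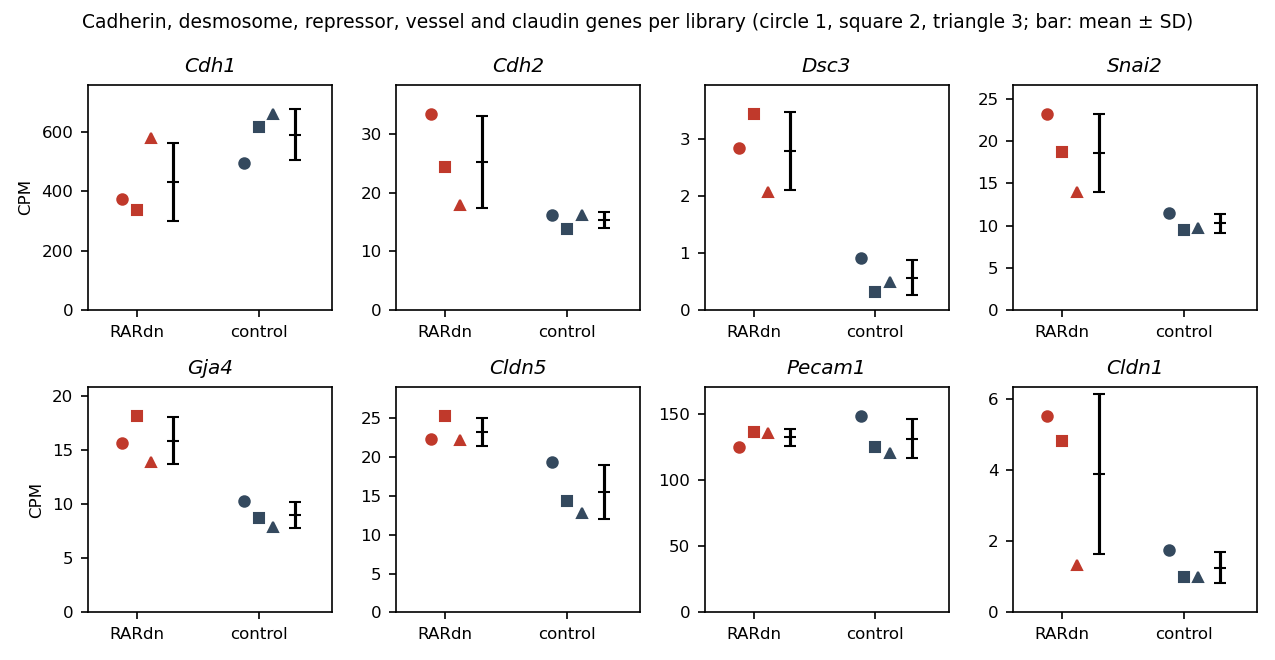
Level in CPM of 8 genes in each library (circle, square and triangle for libraries 1, 2 and 3), RARdn at the left and control at the right of each panel, with the mean and SD beside the points. Cdh1 is low in RARdn 1 and 2 and not in RARdn 3, Cdh2, Dsc3, Snai2, Gja4 and Cldn5 have all 3 RARdn points above the controls, and Pecam1 overlaps.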

How the data were processed

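Whole pancreas RNA was extracted with RNeasy columns, per the labels' protocols. FastQC, cutadapt, HISAT2, HTSeq, bedtools and DESeq2 and the builds mm10 and GRCm38 are named per the submitters' processing notes. Their versions, the annotation and the strand setting: not given in the sources used here. The authors deposited raw read counts per gene symbol, 1 table per library.

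Counts were summarised here with edgeR 4.0.16 in R 4.3.3: filterByExpr (19070 genes kept), TMM scaling and the quasi-likelihood test, 2-sided, with Benjamini-Hochberg adjustment over all genes tested. DESeq2 1.42.0 and limma 3.58.1 (voom) were alternatives, with other filters and scalings, an Xist term, a replicate block and each library left out. The edgeR fit was tested on simulated data that held 1.5-, 2- and 4-fold changes and the same spread in both groups. At an adjusted p under 0.05 it recovered 18.75%, 67.2% and 92.3% of these changes, and 3.31% of its calls were false. In that simulation changes near 1.5-fold were mostly missed. In the data the spread was unequal, with a median SD among tested members of 19.0% of the mean in RARdn and 9.56% in control. These shares of recovery therefore need not hold for the data. Exon lengths and positions are from GENCODE M21 (GRCm38), which held 54183 of the symbols. Without strand information, reads of overlapping opposite-strand genes cannot be told apart. No 2 libraries of a group agreed within sampling noise.

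Replicate numbers are shared by the labels but give no pairing.

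Full values were given for members called by edgeR, the 2 most abundant per role, members averaging 2 CPM or more whose groups did not overlap, and up to 3 called or the 2 most abundant genes per partner list. Other members with full values, and the other genes named, were chosen after their values were seen. 1 member, included in the counts, is not reported here by itself. The members and lists were chosen with earlier results of these data known.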

Additional observations from a re-analysis of the deposited data

How the results depend on the processing

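With 3 libraries in each group, counts of calls moved with the processing, and the cause was not tested. Among all genes the calls higher and lower in RARdn were 973 and 973 with DESeq2, 5 and 56 with a term for Xist, 77 and 140 among genes with at least 1 CPM in 3 libraries, 1123 and 1223 with no filter, and 898 and 285 when libraries were scaled to the epithelium list. Leaving out 1 library gave 22 to 1404 higher and 71 to 1576 lower. Among members the calls were 4 higher and 2 lower with DESeq2, 5 higher with no filter, 4 higher under the epithelium scaling, and 0 to 4 higher and 0 to 9 lower with 1 library left out. Among partners the calls higher were 1 with the 1 CPM filter, 6 with no filter and 5 under the epithelium scaling. With 1 library left out 0 to 11 partners were called higher. Partners called lower were 1 with DESeq2 and 0 to 3 with 1 library left out.

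Scaling to the epithelium list moved the median log2 fold change of all genes to 0.46 and that of members to 0.23. Under it 5 tested members were below 0 and 31 above, against 24 and 12 in the main fit. Among the members chosen by rule for full values, the sign turned for Cldn3 (0.036), Cldn4 (0.16), Cldn10 (0.074), Pard3 (0.37), Patj (0.044), Epcam (0.22) and Jup (0.24). All of these were still below the shift of all genes. Among the partners chosen by rule, it turned for Ybx3 (0.20), Llgl2 (0.20), Ctnnb1 (0.33), Ctnna1 (0.31), Pkp4 (0.28), Gjb1 (0.13), Esrp2 (0.23) and Esrp1 (0.14). Among these genes chosen by rule, the sign elsewhere turned only for Cdc42 with the 1 CPM filter (-0.0065) and for 4 genes with 1 library left out. Those were Tjp1 (-0.026 to 0.076), Sympk (-0.074 to 0.13), Cdc42 (-0.020 to 0.045) and Gjb1 (-0.50 to 0.062). Over all tested members, 25 were below 0 with limma-voom and with the replicate block, against 24 in the main fit.

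Deviations of same-numbered libraries correlated at 0.01, -0.01 and 0.13, so the numbers were not taken as pairs. A replicate block gave 321 higher and 496 lower calls among all genes (4.28%) and 0 among members, and changed no call among the named genes. The 3 ratios kept their direction in each alternative.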
